A study of Mus musculus with 17 samples.

Results

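The genes described here carry out or control the synthesis of fatty acids and cholesterol and the export of cholesterol. They are 36 genes chosen by symbol from a written list, and all 36 were found among the 22558 genes of the expression table that could be used. Whole-kidney RNA of 17 male mice was sequenced, 1 library per mouse. The Ctrl group held 5 wild-type C57BL/6 mice given saline. Of 12 db/db mice, 6 were given saline (Case) and 6, the Dapa mice, received 1 mg/kg of dapagliflozin daily. The mice of all 3 groups were 8 weeks old at the start and were treated for 6 weeks. Dapagliflozin inhibits SGLT2, the glucose transporter of the proximal tubule. The db/db mice (BKS.Cg-Dock7m +/+ Leprdb/J) lack the long form of the leptin receptor in all cells, overeat and become obese and diabetic. They stand on another strain background than the C57BL/6 mice, so in every comparison with Ctrl the leptin receptor defect, its metabolic effects and the strain cannot be told apart. The total count per library was 13039535 to 17779635, with medians of 16403995 in Ctrl, 15826611 in Case and 14514719 in Dapa. Mitochondrial genes held 17.9% to 20.4% of the counts in Ctrl, 19.8% to 27.3% in Case and 19.7% to 27.6% in Dapa. All 36 genes passed the filter on low counts in each of the 3 comparisons, with 31 counts (Abcg1) to 8933 counts (Me1) per gene and mouse. All 10 kidney markers looked at were detected in each group. Their summed level was 10060 to 17010 FPKM in Ctrl, 2332 to 5012 in Case and 3213 to 6781 in Dapa, most of it in Ctrl from Kap, an androgen-driven tubule gene with log2 fold changes of -2.95 (q = 0.0011) in Case and -2.53 (q = 0.000689) in Dapa. Without Kap the other 9 summed to 2162 to 2416 FPKM in Ctrl, 1677 to 2775 in Case and 2170 to 2453 in Dapa. Against Ctrl, 2 of the 10 were called lower and 2 higher in Case, and 3 lower and 3 higher in Dapa. Of all genes tested, 6.91% were called lower and 6.09% higher in Case, and 14.9% and 14.2% in Dapa. The proximal tubule transporter gene Slc22a6 was lower (-0.84, q = 0.0249 in Case and -0.78, q = 0.00351 in Dapa), while the collecting duct water channel gene Aqp2 (0.78, q = 0.0395 and 1.44, q = 0.00754) and the podocyte gene Nphs1 (0.59, q = 0.00361 and 0.67, q = 0.00091) were higher. In Dapa the phosphate transporter gene Slc34a1 was also lower (-0.31, q = 0.0367) and Slc12a3 of the distal tubule higher (0.40, q = 0.0104). The part of these marker differences in the results was not tested. Of the 5 adrenal cortex markers in the table, the summed level was at most 1.34 FPKM in any mouse, and 9 liver markers summed to 21.7 to 142 FPKM with overlapping ranges in the 3 groups.

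Cells build fatty acids from acetyl-CoA and cholesterol from the same unit through mevalonate, isoprenoids and squalene. The membrane-bound factors SREBP1 and SREBP2 (genes Srebf1 and Srebf2) switch these genes on when they are released from the endoplasmic reticulum, where the INSIG proteins hold them back while sterols are plentiful. SREBP1 acts mainly on fatty acid genes and SREBP2 on sterol genes, ChREBP (Mlxipl) responds to glucose, and the liver X receptor (Nr1h3) senses oxysterols and drives cholesterol export. In the diabetic kidney, lipid build-up in tubules and glomeruli is a known feature of the disease.

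SREBP proteins bind sterol response elements together with the factor NF-Y, which reads CCAAT boxes. RefSeq promoter windows (build GRCm38.p6) were at hand for 27 of the 36 genes, and the 250 bases before each start were searched on both strands. The sterol response element searched, TCACNCCAC with N for any base, stood in 1.05% of the 32851 windows of all genes and in 2 of the 40 windows of the 27 genes, those of Hmgcs1 and 1 of Mlxipl. A CCAAT box stood in 33.8% of all windows and in 20 of the 40. By role these were 7 of 9 windows of sterol synthesis, 4 of 7 of fatty acid synthesis, 6 of 12 of regulators, 2 of 5 of elongation and desaturation, 1 of 3 of triglyceride assembly and 0 of 4 of cholesterol export. The sterol synthesis genes Fdps, Fdft1 and Sqle had no window. The E-box CACGTG, a sequence that SREBP1 and ChREBP can recognise, stood in 6.02% of all windows and in 6 of the 40. The GC box GGGCGG stood in 32.7% of all windows and in 24 of the 40. The 4 motifs were searched separately, so matches may overlap, and a match describes the letters only. The windows of 3 sterol synthesis genes that were lower in treated or untreated db/db mice and of Insig1, a sterol-responsive gene with its highest values in Dapa, are shown with the sterol response element and the CCAAT boxes (ATTGG on the other strand) in capitals. Hmgcs1 lies at chr13:119690101-119690350 on the plus strand, Mvd at chr8:122443423-122443672 on the minus strand, Idi1 at chr13:8885356-8885605 on the plus strand and Insig1 at chr5:28071162-28071411 on the plus strand.
Hmgcs1: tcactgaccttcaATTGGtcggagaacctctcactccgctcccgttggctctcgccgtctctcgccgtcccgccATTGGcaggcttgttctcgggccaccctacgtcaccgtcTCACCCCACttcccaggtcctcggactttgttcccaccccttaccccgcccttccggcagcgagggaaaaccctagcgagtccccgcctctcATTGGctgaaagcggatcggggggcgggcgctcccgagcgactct
Mvd: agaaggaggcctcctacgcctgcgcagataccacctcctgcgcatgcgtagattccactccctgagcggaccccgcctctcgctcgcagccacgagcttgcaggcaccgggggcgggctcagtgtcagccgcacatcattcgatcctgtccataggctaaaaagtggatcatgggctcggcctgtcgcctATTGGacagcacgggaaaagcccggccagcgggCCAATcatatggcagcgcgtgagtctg
Idi1: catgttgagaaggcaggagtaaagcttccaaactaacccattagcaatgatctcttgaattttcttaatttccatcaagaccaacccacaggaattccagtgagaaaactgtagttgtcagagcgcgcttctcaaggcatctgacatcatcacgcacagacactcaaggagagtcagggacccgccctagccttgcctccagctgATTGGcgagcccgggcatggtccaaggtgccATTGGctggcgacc
Insig1: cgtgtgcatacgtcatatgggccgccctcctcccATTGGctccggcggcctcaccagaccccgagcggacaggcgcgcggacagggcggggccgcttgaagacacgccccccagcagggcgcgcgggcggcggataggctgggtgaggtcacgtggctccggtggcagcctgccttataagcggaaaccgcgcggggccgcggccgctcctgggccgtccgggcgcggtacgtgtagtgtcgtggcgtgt
The Hmgcs1 window held 1 sterol response element and 3 CCAAT boxes. Mvd and Idi1 held 2 CCAAT boxes each and Insig1 held 1, without a match to the sterol response element in these letters.

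In the kidneys of the Case mice, 5 of the 36 genes were lower and 4 were higher than in Ctrl. The lower genes were Acss2 and Me1, which supply acetyl-CoA and NADPH, the desaturase Fads2, and Mvd and Idi1 of the mevalonate route. The higher genes were the desaturase Scd2, the squalene synthase gene Fdft1, the cholesterol transporter Abca1 and the lipoprotein gene Apoe. A gene was called when its adjusted p (q) was under 0.05 in edgeR's quasi-likelihood test on TMM-scaled counts. Of all 14582 genes tested, 6.91% were called lower and 6.09% higher, while the shares of the 36 genes were 13.9% and 11.1%. With the further requirement of a fold above 2 between the mean FPKM values (fragments per kilobase of transcript, scaled to the library total), 3 of the genes remained, Me1, Idi1 and Apoe, against 3.79% of all genes. The FPKM ranges of Case and Ctrl did not overlap for 9 of the 36 genes, against 8.43% of all genes. The median log2 fold change was -0.11 over the 36 genes and 0.03 over all genes tested. In limma on log2(FPKM + 0.1), which has no TMM scaling, the median over all genes was 0.10. A narrow gap between FPKM ranges may therefore turn on the scaling. In whole-kidney RNA, fewer cells that use a gene and less of its RNA per cell cannot be told apart.

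Between the Dapa and Ctrl mice, 10 of the 36 genes were called higher and 11 lower, 27.8% and 30.6% of them, against 14.2% and 14.9% of the 14647 genes tested. The fold requirement left 7 (Insig1, Me1, Scd2, Hmgcs1, Idi1, Abcg1 and Apoe) against 7.18% of all genes, and the ranges did not overlap for 11 genes against 14.5%. The 9 genes called in Case were called in the same direction in Dapa, a comparison that shares the Ctrl mice. The comparison of Dapa with Case asks what the drug changed in db/db kidneys. In it, 0 of the 36 genes and 0% of 14573 genes had a q under 0.05. At an unadjusted p under 0.05, 5 of the 36 were higher and 1 was lower in Dapa, against 6.24% and 6.66% of all genes, and no gene of the 36 had separate ranges against 0.48% of all. DESeq2 and edgeR's exact test also called 0 of the 36 genes between Dapa and Case, with 202 and 129 genes called in all. On the FPKM scale with limma, the share of higher genes among all calls was 59.1% to 60.3% in place of 46.9% in Case and 66.2% to 66.8% in place of 48.7% in Dapa, both against Ctrl, while the 36 genes split 5 to 5 and 10 to 9.

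**Figure D1:**
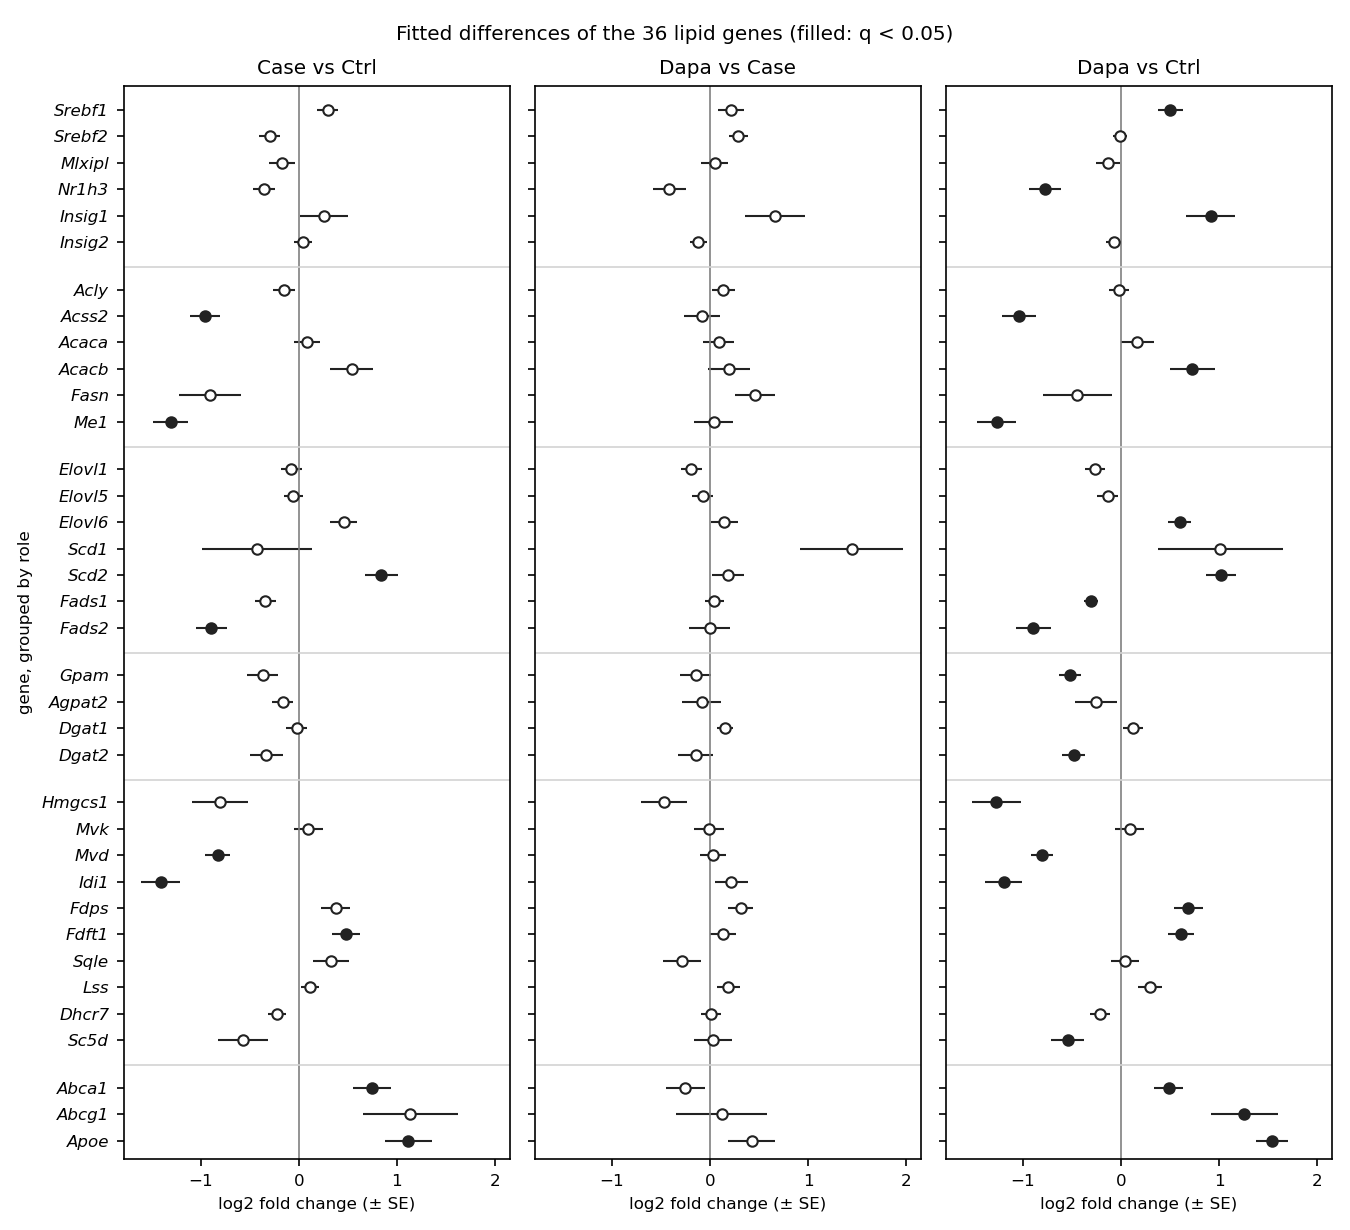
Fitted log2 fold changes (horizontal axis, points with standard error bars) of the 36 genes, one line per gene and grouped from top to bottom as regulators, fatty acid synthesis, elongation and desaturation, triglyceride assembly, sterol synthesis and cholesterol export, in the 3 comparisons. Filled points have a q under 0.05: 9 in Case against Ctrl, 0 in Dapa against Case and 21 in Dapa against Ctrl.

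The 10 sterol synthesis genes did not move as one group. In Case, Mvd and Idi1 were lower and Fdft1 was higher than in Ctrl. In Dapa, Hmgcs1, Mvd, Idi1 and Sc5d were lower and Fdps and Fdft1 higher. The shares called were 30% in Case and 60% in Dapa, against 13% and 29.1% of all genes in either direction. The median log2 fold change of the 10 was -0.06 in Case and -0.09 in Dapa, against 0.03 and 0.02 over all genes.

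Idi1 (chromosome 13, 8885501 to 8892451, mm10) encodes the isomerase that makes dimethylallyl diphosphate, one of the building units of isoprenoids. Its level was 8.14, 10.5, 12.5, 6.04 and 11.2 FPKM in the 5 Ctrl mice, 3.22 to 5.17 (median 3.51) in Case and 3.37 to 5.965 (median 4.33) in Dapa. Every db/db mouse was below every Ctrl mouse. The log2 fold change against Ctrl was -1.40 (SE 0.20, q = 0.00118 from edgeR) in Case, 2.65-fold lower, and -1.19 (SE 0.19, q = 0.00101) in Dapa. Of the 50-base stretches of its transcripts 17.7% also occur in other genes, most in Gm13502.

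Mvd, mevalonate diphosphate decarboxylase, acts one step before Idi1 in the pathway. The Ctrl mice had 17.9, 18.2, 21.85, 17.5 and 20.7 FPKM, the Case mice 9.05 to 13.5 (median 11.6) and the Dapa mice 10.8 to 15.5 (median 11.05). Again neither db/db group reached the lowest Ctrl value. The fitted difference on the log2 scale was -0.83 (SE 0.12, q = 0.0016) in Case and -0.80 (SE 0.11, q = 0.000557) in Dapa.

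Hmgcs1, the cytosolic HMG-CoA synthase that opens the mevalonate route, had 54.7, 147, 142, 94.15 and 152 FPKM in Ctrl, 44.6 to 119 (median 69.4) in Case and 39.2 to 78.05 (median 45.8) in Dapa. Ctrl mice 1 and 4 lay within the Case range, and mouse 1 also lay within the Dapa range. The change against Ctrl in log2 units was -1.27 (SE 0.25, q = 0.00309) in Dapa, where it was called, and -0.80 (SE 0.29, q = 0.0828) in Case, where it was not. Between Dapa and Case it was -0.47 (SE 0.24, q = 0.41). Without Case mouse 1 the value in Case was -1.02 with a q of 0.0275.

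Sc5d, which makes one of the last double bonds of cholesterol, ranged from 10.1 to 20.7 FPKM in Ctrl, 5.86 to 16.1 in Case and 10.1 to 13.7 in Dapa, with overlap throughout. Its log2 fold change was -0.54 (SE 0.17, q = 0.0291) in Dapa and -0.57 (SE 0.25, q = 0.157) in Case. The call in Dapa was lost without any one of 5 of the 11 mice (Ctrl 1, 2 or 3, Dapa 11 or 12) and in limma on log2(FPKM + 1) (q = 0.0816).

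Fdft1, squalene synthase, commits the route to sterols. It had 5.28, 4.84, 5.81, 5.44 and 3.75 FPKM in Ctrl, 6.1 to 9.38 (median 7.21) in Case and 6.28 to 9.28 (median 8.51) in Dapa. All 12 db/db mice were above all Ctrl mice, in Case with a gap only from 5.81 to 6.1 FPKM. The log2 fold change was 0.48 (SE 0.14, q = 0.0439) in Case and 0.61 (SE 0.13, q = 0.00543) in Dapa. In Case the q rose above 0.05 when any one of 9 of the 11 mice was left out, with log2 fold changes of 0.37 to 0.54. Of its exon bases 18.3% lie opposite exons of Ctsb, whose own log2 fold change was 0.35 (q = 0.0271) in Case and 0.14 (q = 0.212) in Dapa. Antisense genes also lie opposite 12.1% of the exon bases of Hmgcs1 (Gm48342), 9.22% of Idi1 (Gm48574) and 9.12% of Acss2 (Acss2os, Ggt7 and Gss). The kit marked strand, but the use of strand in the counting is not given in the sources used here, so reads of these 4 genes and of their antisense partners may not be separated.

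Fdps makes farnesyl diphosphate, the substrate of squalene synthase. Its level was 1.48, 1.37, 1.3, 1.57 and 0.981 FPKM in Ctrl, 1.59 to 2.22 (median 1.75) in Case and 2.01 to 3.02 (median 2.24) in Dapa. Case and Ctrl were separated only between 1.57 and 1.59 FPKM. The gene was called in Dapa (0.69, SE 0.15, q = 0.00469) and not in Case (0.38, SE 0.14, q = 0.104). Dapa and Case differed by 0.31 in log2 units (SE 0.13, q = 0.327). It shares 26.2% of its 50-base stretches with other genes, most with Gm43738, which overlaps it on the same strand and was itself at 0.53 (SE 0.74, q = 0.685) in Case.

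The other 4 sterol synthesis genes were called in no comparison. They are the mevalonate kinase Mvk, the squalene epoxidase Sqle, the lanosterol synthase Lss and Dhcr7, which acts at the last step. Their log2 fold changes against Ctrl were -0.22 to 0.33 in Case and -0.22 to 0.30 in Dapa, with q from 0.0766 upward.

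**Figure D2:**
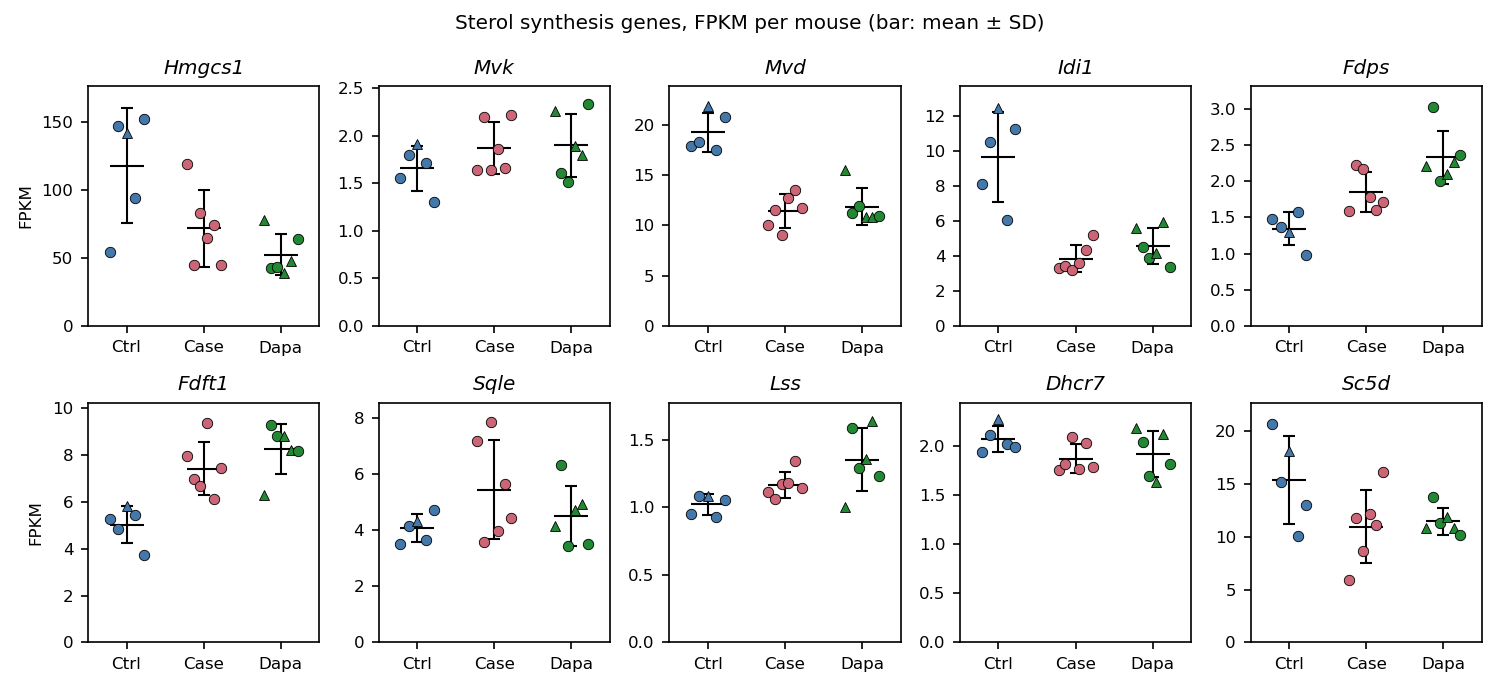
FPKM (vertical axes, from 0) of the 10 sterol synthesis genes in each of the 5 Ctrl, 6 Case and 6 Dapa mice, with the mean and SD as a bar. Triangles mark the 4 mice with at least 10 counts of the adipocyte gene Adipoq. Idi1 and Mvd sit lower in both db/db groups with no overlap with Ctrl, and Fdft1 sits higher.

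Another 15 genes of sterol synthesis and its control were looked at as a list. Between Case and Ctrl 5 were called lower and 0 higher, and between Dapa and Ctrl 6 lower and 1 (Pmvk, a mevalonate pathway kinase) higher. These are 33.3% and 46.7% of the 15, against 13% and 29.1% of all genes called in either direction. The median log2 fold change of the 15 was -0.31 in Case and -0.09 in Dapa. The smallest q belonged to Cyp51, the lanosterol demethylase. It had 79.6, 45.1, 61.0, 35.5 and 45.6 FPKM in Ctrl, 5.3 to 10.2 (median 8.05) in Case and 5.585 to 12.6 (median 9.53) in Dapa, so that the highest db/db mouse lay far under the lowest Ctrl mouse. The fitted difference on the log2 scale was -2.87 (SE 0.23, q = 4.67e-05) in Case, 7.3-fold lower, and -2.64 (SE 0.24, q = 8.68e-05) in Dapa. Lbr, a sterol reductase of the nuclear envelope, had -0.70 (q = 0.00424) and -0.66 (q = 0.00217), and Acat2, the cytosolic acetoacetyl-CoA thiolase, had -0.47 (q = 0.0144) and -0.71 (q = 0.00032).

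Among the 6 genes of fatty acid synthesis, Me1 and Acss2 were lower in both db/db groups and the carboxylase gene Acacb was higher in Dapa. These are 33.3% of the 6 in Case and 50% in Dapa, beside 13% and 29.1% of all genes called in either direction. Me1 (chromosome 9, 86581371 to 86695953, mm10), the cytosolic malic enzyme that makes NADPH, had 93.2, 85.6, 95.25, 59.0 and 83.6 FPKM in Ctrl, 28.6 to 48.2 (median 33.8) in Case and 24.75 to 55.8 (median 35.6) in Dapa. Neither db/db group overlapped Ctrl. The change against Ctrl in log2 units was -1.30 (SE 0.18, q = 0.00101) in Case, 2.47-fold lower, and -1.27 (SE 0.20, q = 0.000899) in Dapa. Of its 50-base stretches 22.9% also occur in other genes, most in Gm7049.

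Acss2 (chromosome 2, 155517948 to 155585724, mm10) makes acetyl-CoA from acetate. Its level was 22.8, 24.9, 24.9, 18.5 and 25.5 FPKM in Ctrl, 9.48 to 16.4 (median 12.4) in Case and 9.0 to 17.6 (median 10.7) in Dapa. Ctrl mouse 4 was the lowest of its group in Acss2, Me1 and Idi1 and was still above every db/db mouse. Acss2 had a log2 fold change of -0.96 (SE 0.16, q = 0.00253) in Case and -1.04 (SE 0.17, q = 0.00127) in Dapa.

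Acacb, the acetyl-CoA carboxylase at mitochondria whose product restrains fatty acid oxidation, had 1.65 to 3.99 FPKM in Ctrl, 2.7 to 6.05 in Case and 2.96 to 7.12 in Dapa. The log2 fold change was 0.73 (SE 0.23, q = 0.0286) in Dapa and 0.54 (SE 0.22, q = 0.129) in Case. The call in Dapa was lost without any one of 5 of the 11 mice (Ctrl 1, 2 or 5, Dapa 10 or 12). Acly, the citrate lyase, and Acaca, the cytosolic carboxylase, were called in no comparison, with log2 fold changes against Ctrl of -0.15 and 0.08 in Case and -0.02 and 0.17 in Dapa. Acaca was at 0.514 to 1.16 FPKM, and 30.4% of its 50-base stretches also occur in other genes, most in Gm5182.

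Fasn, the fatty acid synthase, had 2.44, 2.36, 7.94, 2.27 and 2.6 FPKM in Ctrl, 1.51 to 2.47 (median 2.01) in Case and 1.47 to 4.67 (median 2.53) in Dapa. Ctrl mouse 3 stood alone in its group. The log2 fold change was -0.90 (SE 0.31, q = 0.0737) in Case and -0.36 (q = 0.117) without Ctrl mouse 3. From Case to Dapa the change was 0.46 (SE 0.21, q = 0.373).

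The mice with the highest Fasn and Scd1 of Ctrl and of Dapa, Ctrl 3 and Dapa 11, were among those with adipocyte transcripts. Adipoq, which encodes adiponectin, had 264 counts in Ctrl mouse 3, 74 in Dapa 7, 61 in Dapa 11 and 21 in Dapa 10, 2 counts in Dapa 12 and 0 in the other 12 mice. The summed FPKM of the 9 adipocyte markers was 97.2 in Ctrl 3 and 6.2 to 12.4 in the other Ctrl mice, 3.22 to 21.6 in Case, where 5 of the 9 were at 0 in every mouse, and 5.26 to 37.3 in Dapa. Fabp4, which endothelium also expresses, made up nearly all of the sum in mice without Adipoq counts. When the 3 Dapa mice with at least 10 Adipoq counts were left out, the log2 fold change between Dapa and Case was 0.07 (q = 0.96) for Fasn and 0.69 (q = 0.848) for Scd1. Those mice had the 3 highest Fasn values and 3 of the 4 highest Scd1 values of Dapa, so smaller values were built into this fit. In Dapa against Ctrl, leaving out all 4 such mice (Ctrl 3, Dapa 7, 10 and 11) kept 13 of the 21 calls, while 8 had q of 0.0618 to 0.284 with fewer mice. Of these 8, the log2 fold changes of Srebf1 (0.54 in place of 0.50), Insig1 (0.98 in place of 0.91), Acacb (0.73 in both) and Dgat2 (-0.49 in place of -0.48) were as large without those mice. Those of Fads1 (-0.23 in place of -0.30), Sc5d (-0.42 in place of -0.54), Abca1 (0.36 in place of 0.49) and Abcg1 (0.83 in place of 1.26) were smaller. The part of adipocyte RNA in the values of Fasn, Scd1 and these 8 genes was not tested.

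Of the 7 elongases and desaturases, Scd2 was higher and Fads2 lower in both db/db groups, and in Dapa Elovl6 was also higher and Fads1 lower. That is 28.6% called in Case and 57.1% in Dapa, against 13% and 29.1% of all genes in either direction. Scd2, a stearoyl-CoA desaturase that makes monounsaturated fatty acids, had 8.9, 12.5, 12.4, 15.8 and 11.7 FPKM in Ctrl, 17.1 to 35.95 (median 22.2) in Case and 19.5 to 33.9 (median 26.8) in Dapa. All db/db mice were above all Ctrl mice. The fitted difference on the log2 scale was 0.84 (SE 0.17, q = 0.00752) in Case and 1.02 (SE 0.15, q = 0.000727) in Dapa. Its transcripts share 3.97% of their 50-base stretches with other genes, most with Scd1.

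Fads2, the delta-6 desaturase of polyunsaturated fatty acids, had 67.7, 60.15, 69.3, 59.0 and 69.1 FPKM in Ctrl, 27.8 to 50.85 (median 33.75) in Case and 22.2 to 53.2 (median 34.4) in Dapa. Both db/db groups were separate from Ctrl here too. The change against Ctrl in log2 units was -0.89 (SE 0.16, q = 0.00476) in Case and -0.90 (SE 0.18, q = 0.00332) in Dapa. Fads1, the delta-5 desaturase next to it on chromosome 19, had 18.8 to 22.5 FPKM in Ctrl, 13.9 to 19.6 in Case and 16.3 to 19.58 in Dapa, with overlap between the groups. Its log2 fold change was -0.30 (SE 0.07, q = 0.00791) in Dapa and -0.34 (SE 0.11, q = 0.0521) in Case. The Fads1 call in Dapa was lost in limma on log2(FPKM + 1), with a q of 0.0622.

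Elovl6 lengthens palmitate to stearate. It had 1.8, 2.03, 2.36, 2.48 and 1.9 FPKM in Ctrl, 2.33 to 4.09 (median 2.97) in Case and 2.68 to 4.01 (median 3.5) in Dapa. The Dapa mice lay above all Ctrl mice, while the lowest Case mouse lay inside the Ctrl range. It had a log2 fold change of 0.60 (SE 0.12, q = 0.00311) in Dapa and 0.46 (SE 0.14, q = 0.0506) in Case. Beside the single mice left out, 11 alternatives were run in Case. Elovl6 stayed uncalled in 4 of them and was called in the others, with a q of 0.0241 in DESeq2. Elovl1 and Elovl5, elongases of very long and polyunsaturated chains, were called in no comparison, with log2 fold changes of -0.27 to -0.06 against Ctrl.

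Scd1, the other stearoyl-CoA desaturase, differed widely among mice of a group. Ctrl had 2.79, 4.35, 24.5, 4.27 and 6.98 FPKM and Case 11.5, 3.93, 9.23, 10.3, 3.79 and 2.24. The Dapa mice 7 to 12 had 20.1, 24.4, 4.29, 19.0, 40.95 and 4.63 in that order. Thus 4 Dapa mice were above every Case mouse and 2 were not. Of those 4, Dapa 8 had 0 counts of Adipoq. Between Dapa and Case the log2 fold change was 1.44 (SE 0.53, q = 0.286), and against Ctrl it was -0.43 (SE 0.56, q = 0.657) in Case and 1.01 (SE 0.64, q = 0.25) in Dapa. Both moved with single mice. Without Ctrl mouse 3 the value turned to 0.49 (SE 0.42, q = 0.522) in Case, and in Dapa it was 1.94 (SE 0.56, q = 0.0293) and passed the threshold. Without Dapa mouse 11 it was 0.65 (SE 0.63, q = 0.478) in Dapa. In Case it was -0.66 (q = 0.493) without Case mouse 1, -0.25 (q = 0.812) without Case mouse 6 and -0.09 in limma on log2(FPKM + 1). Without all 4 mice with at least 10 Adipoq counts it was 1.18 (SE 0.56, q = 0.201) in Dapa.

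**Figure D3:**
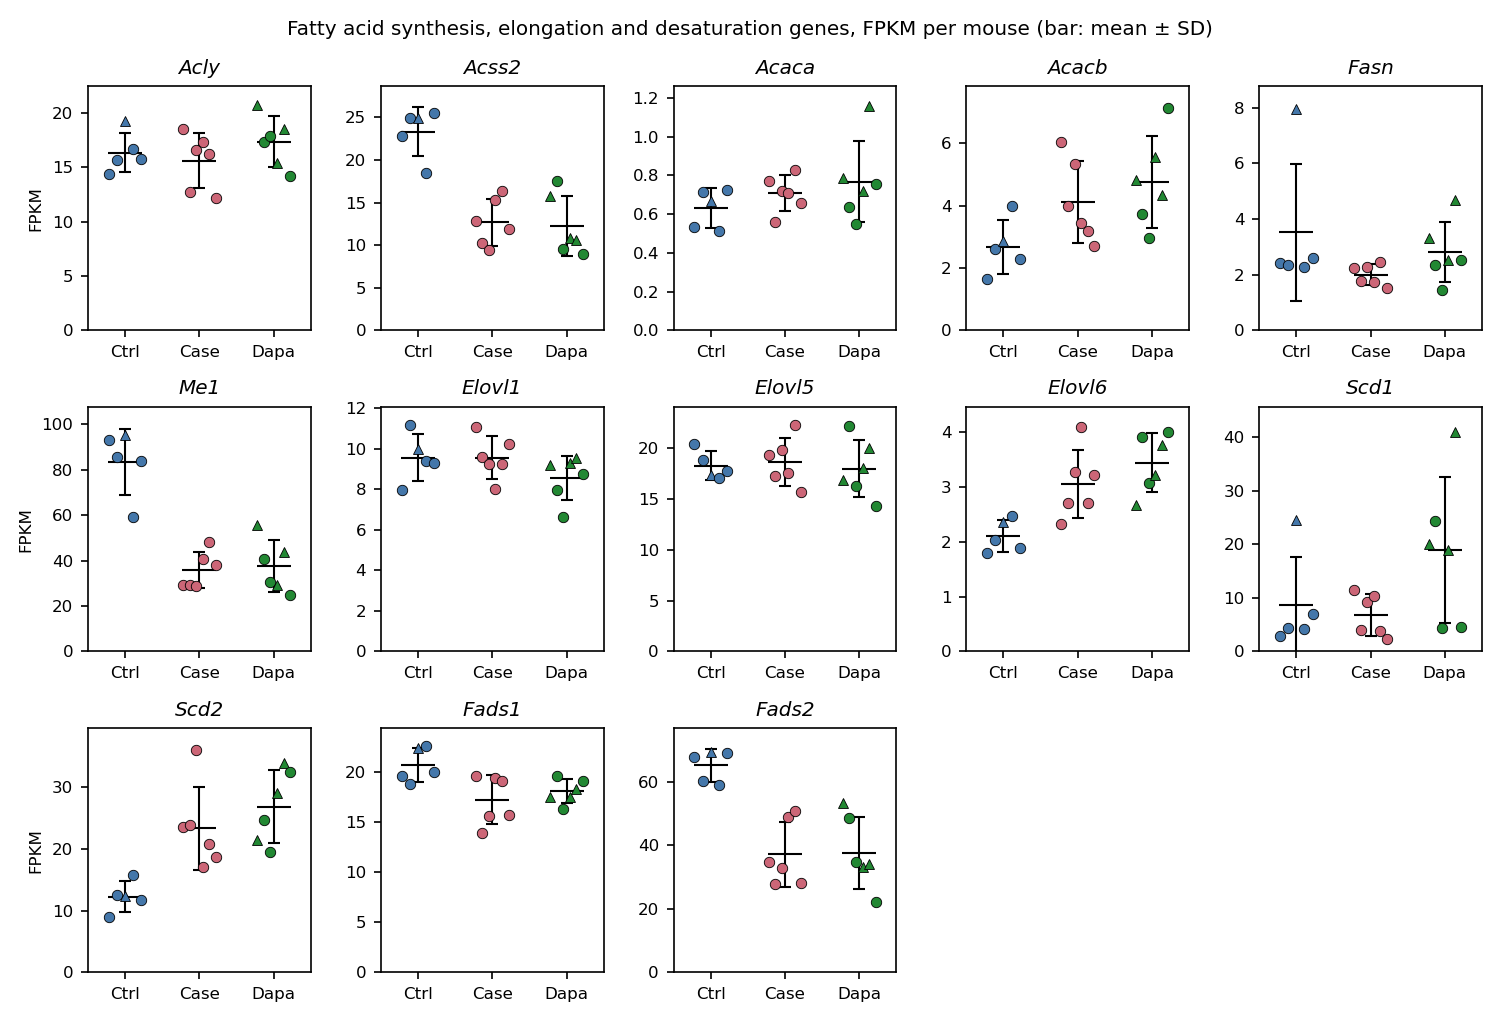
FPKM (vertical axes, from 0) of the 6 fatty acid synthesis genes and the 7 elongases and desaturases in each of the 5 Ctrl, 6 Case and 6 Dapa mice, with the mean and SD as a bar (cut at 0 for Scd1 in Ctrl). Triangles mark the 4 mice with at least 10 Adipoq counts, among them the Ctrl mouse with 7.94 FPKM of Fasn and 24.5 of Scd1.

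Of the 4 genes of triglyceride assembly, 0 were called in Case and 2 were lower in Dapa, both against Ctrl, where 6.91% and 14.9% of all genes were called lower. Gpam, which adds the first fatty acid to glycerol phosphate, had 25.3 to 32.4 FPKM in Ctrl, 15.65 to 32.7 in Case and 19.7 to 29.8 in Dapa, and a log2 fold change of -0.52 (SE 0.11, q = 0.00512) in Dapa. Dgat2, one of the acyltransferases of the final step, had 70.7 to 86.6 FPKM in Ctrl, 41.05 to 79.9 in Case and 42.5 to 70.67 in Dapa, the ranges of Ctrl and Dapa meeting at 70.7 without overlapping, and a log2 fold change of -0.48 (SE 0.12, q = 0.00883). In Case the values were -0.37 (SE 0.16, q = 0.143) for Gpam and -0.33 (SE 0.17, q = 0.217) for Dgat2. Agpat2, which adds the next fatty acid, and Dgat1, the other final acyltransferase, were called in no comparison, with log2 fold changes against Ctrl of -0.16 and -0.02 in Case and -0.25 and 0.12 in Dapa.

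The further list of fatty acid and triglyceride synthesis held 34 genes, of which 29 were tested in Case and 30 in Dapa. In Case 4 were lower and 2 higher than in Ctrl, and in Dapa 9 were lower and 1 higher. The shares called, 20.7% in Case and 33.3% in Dapa, stand beside 13% and 29.1% of all genes, so that in Dapa the share was near that of all genes. Fads3, a neighbour and relative of Fads2, had the smallest q in both, with 49.2 to 59.1 FPKM in Ctrl, 28.25 to 36.03 in Case and 22.2 to 44.4 in Dapa. Its log2 fold change was -0.80 in both groups (SE 0.10, q = 0.00072 in Case and SE 0.14, q = 0.00149 in Dapa). Hacd2, a dehydratase of the elongation cycle, had -0.52 (q = 0.0029) and -0.55 (q = 0.00243), and Mogat1, a monoacylglycerol acyltransferase, had -0.78 (q = 0.00545) and -1.01 (q = 0.0046). The 2 higher genes in Case were Lpin2, a phosphatidate phosphatase (0.70, q = 0.00906), and Gpat3, a relative of Gpam (0.70, q = 0.0486).

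Of 14 lipid droplet and lipolysis genes 13 were tested, and 1 was lower in Case. This was Cideb, a droplet protein, with 72.3 to 76.5 FPKM in Ctrl, 37.5 to 60.4 in Case and 38.0 to 57.2 in Dapa, and log2 fold changes of -0.71 (SE 0.12, q = 0.00371) in Case and -0.68 (SE 0.10, q = 0.000708) in Dapa. In Dapa 3 were lower and 1 was higher than in Ctrl, among them the droplet coat gene Plin2 (-0.59, q = 0.0234) and Abhd5, the partner of the triglyceride lipase (-0.47, q = 0.0218). The 7.69% called in Case was below the 13% of all genes, and the 30.8% in Dapa was near the 29.1% of all genes. Between Dapa and Case 0 of the 69 further genes tested were called. Over all 4 further lists, 5 genes were higher and 20 lower in Dapa against Ctrl, but 10 and 11 in limma on log2(FPKM + 1). In Case the split was 4 higher and 11 lower, and 5 and 10 in limma.

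Among the 6 regulators none was called in Case, and in Dapa Srebf1 and Insig1 were higher and Nr1h3 lower than in Ctrl, where 13% (Case) and 29.1% (Dapa) of all genes were called in either direction. Srebf1 had 1.71, 1.76, 1.97, 1.87 and 2.04 FPKM in Ctrl, 1.905 to 2.885 (median 2.42) in Case and 2.04 to 3.79 (median 2.86) in Dapa. All db/db mice but the lowest of each group were above the Ctrl mice. The fitted difference on the log2 scale was 0.50 (SE 0.13, q = 0.0115) in Dapa and 0.29 (SE 0.11, q = 0.0891) in Case.

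Insig1 was even in Ctrl, at 9.26, 8.42, 9.92, 9.42 and 8.36 FPKM, and uneven in db/db mice, at 6.27 to 16.8 (median 10.5) in Case and 9.68 to 29.2 (median 18.6) in Dapa. In log2 units it changed by 0.91 (SE 0.25, q = 0.0159) in Dapa against Ctrl and by 0.66 (SE 0.31, q = 0.387) in Dapa against Case. In Case against Ctrl it was 0.26 (SE 0.24, q = 0.527).

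Nr1h3, the liver X receptor alpha, had 5.96, 5.79, 4.9, 5.57 and 5.38 FPKM in Ctrl, 3.41 to 5.6 (median 4.56) in Case and 2.62 to 5.13 (median 3.01) in Dapa. Of the Dapa mice only mouse 7 reached the Ctrl range. The log2 fold change was -0.78 (SE 0.16, q = 0.00458) in Dapa, -0.36 (SE 0.11, q = 0.0502) in Case and -0.41 (SE 0.17, q = 0.333) between Dapa and Case. Without the 3 Dapa mice with at least 10 Adipoq counts, the last of these was -0.65 (q = 0.591). It was the 1 gene of the 36 with a p under 0.05 and a lower value in Dapa than in Case.

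Srebf2 had 12.1 to 14.35 FPKM in Ctrl, 9.37 to 13.2 in Case and 12.7 to 15.1 in Dapa. The Case mice reached lower than the other groups and the Dapa range overlapped the Ctrl range. Its log2 fold change was -0.30 (SE 0.11, q = 0.0871) in Case against Ctrl, 0.29 (SE 0.10, q = 0.269) in Dapa against Case and -0.01 (SE 0.07, q = 0.902) in Dapa against Ctrl. Mlxipl and Insig2 were called in no comparison, with log2 fold changes of -0.17 to 0.05.

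Of the 3 genes of cholesterol export, 2 were called higher in Case and 3 in Dapa, both against Ctrl, where 6.09% and 14.2% of all genes were called higher. Apoe (chromosome 7, 19696109 to 19699166, mm10), the lipoprotein that carries exported cholesterol and a product of macrophages among other cells, had 12.0, 10.1, 12.2, 12.4 and 9.12 FPKM in Ctrl, 15.2 to 42.2 (median 23.55) in Case and 23.2 to 44.9 (median 35.3) in Dapa. No db/db mouse fell into the Ctrl range. The fitted difference on the log2 scale was 1.12 (SE 0.24, q = 0.0116) in Case, 2.17-fold higher, 1.54 (SE 0.16, q = 0.000139) in Dapa, 2.9-fold higher, and 0.42 (SE 0.24, q = 0.459) between Dapa and Case.

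Abca1, which passes cholesterol to apolipoproteins, had 4.95, 4.92, 5.89, 5.84 and 4.16 FPKM in Ctrl, 5.64 to 12.2 (median 9.48) in Case and 5.125 to 8.97 (median 8.58) in Dapa. The lowest mouse of each db/db group lay inside the Ctrl range. The change against Ctrl in log2 units was 0.75 (SE 0.19, q = 0.0251) in Case and 0.49 (SE 0.15, q = 0.0262) in Dapa. The call was lost without Ctrl mouse 1, 2 or 5 in both comparisons and without Dapa mouse 10 or 11 in Dapa.

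Abcg1, the transporter that loads cholesterol onto lipoprotein particles, was the least abundant of the 3, at 0.455, 0.639, 0.624, 1.09 and 1.1 FPKM in Ctrl, 0.576 to 4.76 (median 1.41) in Case and 0.672 to 2.88 (median 2.04) in Dapa. The log2 fold change was 1.26 (SE 0.34, q = 0.0157) in Dapa and 1.14 (SE 0.48, q = 0.14) in Case. Without Case mouse 3 the value in Case was 0.62 (q = 0.318). That mouse also had the highest summed FPKM of the 10 macrophage markers, 195 against 26.2 to 53.8 in the other Case mice, 26.3 to 45.4 in Ctrl and 23.95 to 58.95 in Dapa. Without it Apoe kept a log2 fold change of 1.02 (q = 0.0209), Abca1 0.73 (q = 0.0387) and Scd2 0.69 (q = 0.00695) in Case. The part of macrophage RNA in the values of Abcg1, Apoe, Abca1 and Scd2 was not tested, and leaving out 1 mouse cannot show it.

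**Figure D4:**
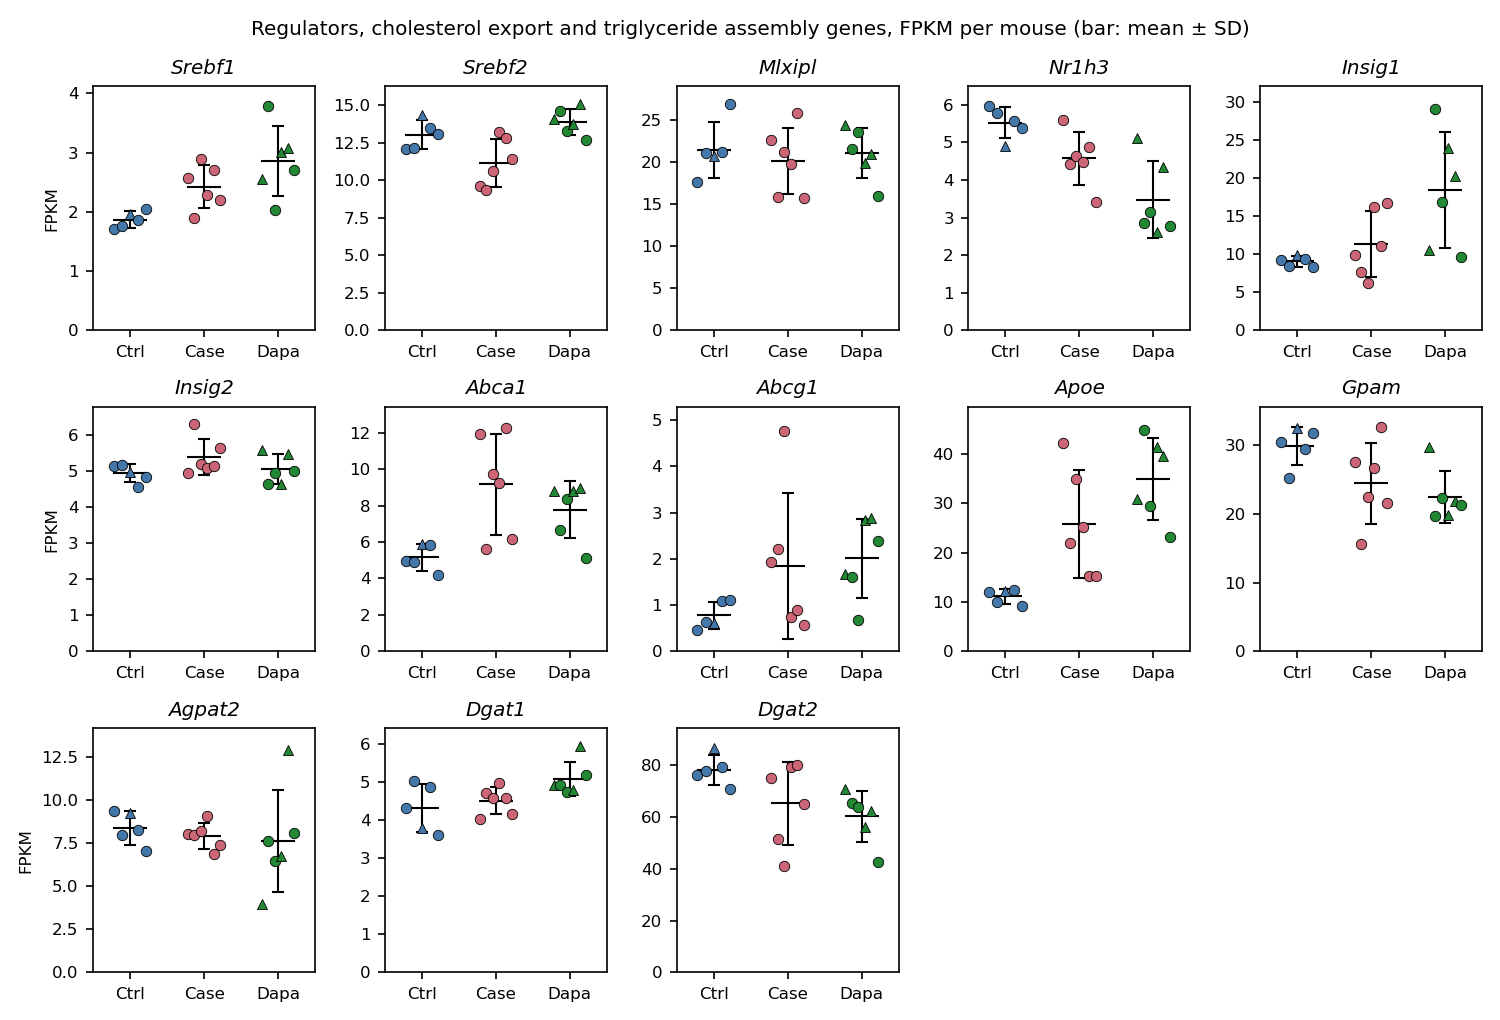
FPKM (vertical axes, from 0) of the 6 regulators, the 3 cholesterol export genes and the 4 triglyceride assembly genes in each of the 5 Ctrl, 6 Case and 6 Dapa mice, with the mean and SD as a bar. Triangles mark the 4 mice with at least 10 Adipoq counts. Apoe lies above the Ctrl mice in all 12 db/db mice, and Insig1 spreads from 9.68 to 29.2 FPKM in Dapa.

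A further list held 14 targets and partners of the liver X receptor and ChREBP. Of the 12 tested, 2 were higher and 1 lower in Case, and 2 were higher and 2 lower in Dapa, both against Ctrl. That is 25% in Case, against 13% of all genes, and 33.3% in Dapa, near the 29.1% of all genes. Arrdc4 and Txnip, arrestin-domain genes that rise with glucose, had log2 fold changes of 0.50 (SE 0.10, q = 0.00645) and 0.68 (SE 0.19, q = 0.032) in Case and of 0.50 (SE 0.11, q = 0.00503) and 0.56 (SE 0.19, q = 0.0393) in Dapa. Arrdc4 had 3.35 to 4.53 FPKM in Ctrl, 5.16 to 6.33 in Case and 4.95 to 6.44 in Dapa, without overlap with Ctrl. Smpdl3a, a phosphodiesterase gene of the list, was lower, at -0.56 (q = 0.0173) in Case and -0.81 (q = 0.00199) in Dapa.

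The 6 genes with an unadjusted p under 0.05 between Dapa and Case (Srebf2, Insig1, Nr1h3, Fasn, Scd1 and Fdps) had q from 0.269 to 0.387. With every mouse left out in turn, their log2 fold changes were 0.49 to 0.84 for Insig1, 0.23 to 0.37 for Fdps, 0.24 to 0.34 for Srebf2, 1.08 to 1.67 for Scd1, 0.28 to 0.59 for Fasn and -0.56 to -0.34 for Nr1h3. The genes were picked by p in these same mice, so leaving out 1 could hardly turn a sign. The kept signs are therefore no support for a difference. Without the 3 Dapa mice with at least 10 Adipoq counts, the values were 0.07 for Fasn, 0.69 for Scd1, -0.65 for Nr1h3, 0.69 for Insig1, 0.41 for Fdps and 0.26 for Srebf2. For the 5 genes that were lower in both db/db groups, the log2 fold changes between Dapa and Case were 0.04 (SE 0.20) for Me1, -0.0007 (SE 0.21) for Fads2, 0.03 (SE 0.13) for Mvd, -0.08 (SE 0.19) for Acss2 and 0.22 (SE 0.17) for Idi1. For the 4 genes that were higher in both, they were 0.42 (SE 0.24) for Apoe, -0.25 (SE 0.20) for Abca1, 0.19 (SE 0.17) for Scd2 and 0.13 (SE 0.13) for Fdft1.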

How the data were processed

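Kidney RNA of 17 mice was sequenced with a strand-marking kit. Reads were mapped by the authors to mm10 using HISAT2, and the deposited counts per gene came from Stringtie. The deposited FPKM values deviated by at most 0.00274% from those given by counts, gene length and library totals (genes with at least 50 counts), so no TMM factor is in them. Of 22561 genes, 3 with entries broken across lines were not used. Groups were those of the labels, and all replicates differed by more than sampling noise.

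The quasi-likelihood test of edgeR 4.0.16 (R 4.3.3) was applied to the counts of the 2 groups of each comparison, with TMM scaling, the filterByExpr filter and Benjamini-Hochberg q-values over all genes tested. A call needed a q under 0.05. Tables and figures were made in Python 3.11.15 with numpy 2.4.6, pandas 2.3.3 and matplotlib 3.10.9. The test was also run on simulated counts, and its outcome there is not given here. The 36 genes, the 77 further genes in 4 lists and the marker lists were chosen with earlier results of these data known. All 36 are accounted for, with full values for those called in any comparison or with a p under 0.05 between Dapa and Case, and up to 3 called genes of smallest q per further list. Pmvk, Lpin2 and Gpat3 were named after their values were seen. All 77 further genes were in the table, Gpat3 by its identifier. The adrenal markers Cyp11b1 and Cyp11b2 were not analysed here.

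As alternatives served DESeq2 1.42.0, the exact test of edgeR, scaling by median ratio or upper quartile, a filter of 10 counts in each library or none, all 3 groups in one fit, limma 3.58.1 on log2(FPKM + 1) and log2(FPKM + 0.1), the replicate block, a term for 7 libraries whose FPKM did not follow the counts in the 3 left-out genes (3 Ctrl, 1 Case, 3 Dapa), each mouse left out in turn and, chosen after seeing the data, the 4 libraries with adipocyte transcripts left out. Shared 50-base stretches and overlaps came from GENCODE M21 (GRCm38).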

Additional observations from a re-analysis of the deposited data

Results flagged for a closer look

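Of 108 sets of values (36 genes in 3 groups of 5 or 6 mice), 8 held a mouse far from the others by Dixon's test. Chance gives about 1 in 20, so several of the 8 may come by chance. A link of the flags to the adipocyte or macrophage markers was not tested. Ctrl 3, which had the most adipocyte transcripts, was highest for Fasn (7.94 FPKM, the others 2.27 to 2.6) and Scd1 (24.5, the others 2.79 to 6.98). Case 3, the mouse with the highest macrophage markers, was highest for Scd2 (35.9, the others 17.1 to 23.8). Dapa 7 was highest for Gpam (29.8, the others 19.7 to 22.2) and Mvd (15.5, the others 10.8 to 11.9) and lowest for Fdft1 (6.28, the others 8.18 to 9.28). Dapa 11 was highest for Dgat1 (5.94, the others 4.73 to 5.18), and Dapa 8 was highest for Fdps (3.02, the others 2.01 to 2.36).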

How the results depend on the processing

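Of 52 pairs of gene and comparison with an unadjusted p under 0.05, 0 changed sign under any alternative. These pairs were picked by that p in the same data, so a change of sign was unlikely from the start. Of the 30 called pairs, 20 were also called in every alternative run, among them those of Acss2, Me1, Scd2, Fads2, Mvd, Idi1 and Apoe in both comparisons with Ctrl. The calls of the 36 genes in Case against Ctrl went from 9 to 14 with DESeq2 and with edgeR's exact test, both of which added Fasn, Hmgcs1, Nr1h3, Fads1 and Elovl6. In Dapa against Ctrl, Abca1, Abcg1 and Sc5d were lost with all 3 groups in one fit (q of 0.0574 to 0.0727). All genes called in Case against Ctrl went from 1895 to 1219 with the term for the 7 libraries and to 1002 to 2154 with 1 mouse left out (1160 without Ctrl 1, 1150 without Ctrl 2, 1002 without Ctrl 3, 1125 without Ctrl 5), where the 36 genes gave 7 to 12 calls. Between Dapa and Case all genes called were 202 with DESeq2, 129 with the exact test, 5 with all 3 groups in one fit and 0 to 7 with 1 mouse left out (7 without Dapa 7). Leaving out the 4 libraries with adipocyte transcripts, which also leaves fewer mice, gave 1650 genes called in Dapa against Ctrl in place of 4260, 13 of the 36 in place of 21 and 10 further genes in place of 25. The calls then lost were those of Srebf1, Insig1, Acacb and Dgat2, with log2 fold changes as large as before (0.54, 0.98, 0.73 and -0.49), and of Fads1, Sc5d, Abca1 and Abcg1, with smaller ones (-0.23, -0.42, 0.36 and 0.83). With 1 mouse left out the further genes called in Dapa were 16 to 27 (16 without Ctrl 3 or without Dapa 10).

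Samples with the same replicate number did not deviate together between Ctrl and Case (correlations of -0.06 to -0.01), so the numbers do not pair the mice. The replicate block gave 707 genes called in Case against Ctrl and 7 of the 36, without Abca1 (q = 0.0652) and Fdft1 (q = 0.087). Of the other 56 pairs 23 changed sign in at least 1 alternative, the largest of them, against Ctrl, Fasn in Dapa (-0.45, and 0.11 without Ctrl 3) and Scd1 in Case (-0.43, and 0.49 without Ctrl 3), and 1, Scd1 in Dapa against Ctrl, was called in 1 (1.94 without Ctrl 3). The fewest counts were those of Abcg1 (31 to 326 per mouse), Fdps (88 to 277) and Mvk (97 to 186), while the largest SEs in Case against Ctrl were those of Scd1 (0.56), Abcg1 (0.48) and Fasn (0.31), whose levels differed among mice of a group.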
